A study of Mus musculus with 20 samples.

Results

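The effect of NACET on the aged mouse retina was read from 10 of the 20 libraries of the study: the 6 libraries labelled Old_NACET and the 4 labelled Old_Ctrl, with every expressed gene. NACET (N-acetyl-L-cysteine ethyl ester) is an esterified, cell-permeable donor of cysteine, the limiting amino acid for glutathione. Each library held the polyA RNA of 1 retina of 1 C57BL/6J mouse, a wild-type inbred strain, and all 10 mice were labelled male. Treated mice took NACET by mouth with their drinking water for 5 days, at a daily dose of 50 mg/kg, and control mice had water without NACET. The 4 old control mice were 668 days old. Of the 6 old NACET-treated mice, 2 were 668 days, 2 were 581 days and 2 were 574 days old, so the treated group held younger animals that have no control of their own age. The other retina of the mice went to thiol measurements, so each library is a single eye of its mouse. The question was which retinal transcripts differ after a short treatment in old animals.

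Cells answer misfolded proteins through pathways that are partly separate. Heat shock proteins refold proteins in the cytosol, and the unfolded protein response, with Xbp1 among its transcription factors, raises chaperones of the endoplasmic reticulum (ER). Immediate early genes such as Fos and Egr1 are switched on within minutes by light, neuronal activity or handling, and NRF2 drives the genes of glutathione and antioxidant metabolism that thiol donors are usually examined for.

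The control libraries held 18.3 to 31.1 M gene counts (M, 1000000) and the NACET libraries 20.4 to 22.7 M, and all 15 rod and 12 cone genes listed passed the expression filter. Several libraries stood apart. NACET replicate 1 (668 days) held lens RNA, and control replicate 2 held RNA of the ocular surface and of blood. Control replicate 4, labelled male, had 59555 counts of Xist, the RNA of the inactive X chromosome, and 1 count over 4 Y-linked genes. The 6 NACET libraries had 5 to 10 counts of Xist and 5395 to 5789 over the Y-linked genes. Control replicate 4 thus differed from every NACET library in these counts, and the part of sex in the calls was not tested. Without control replicate 2, the genes still called were Hspa8, Xbp1, Fos, Egr1, Nr4a1, Sik1, Cc2d2a and Zfp385b, and every other gene written as called, risen or fallen had an edgeR adjusted p over 0.05 in that fit, with its direction kept.

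**Figure D1:**
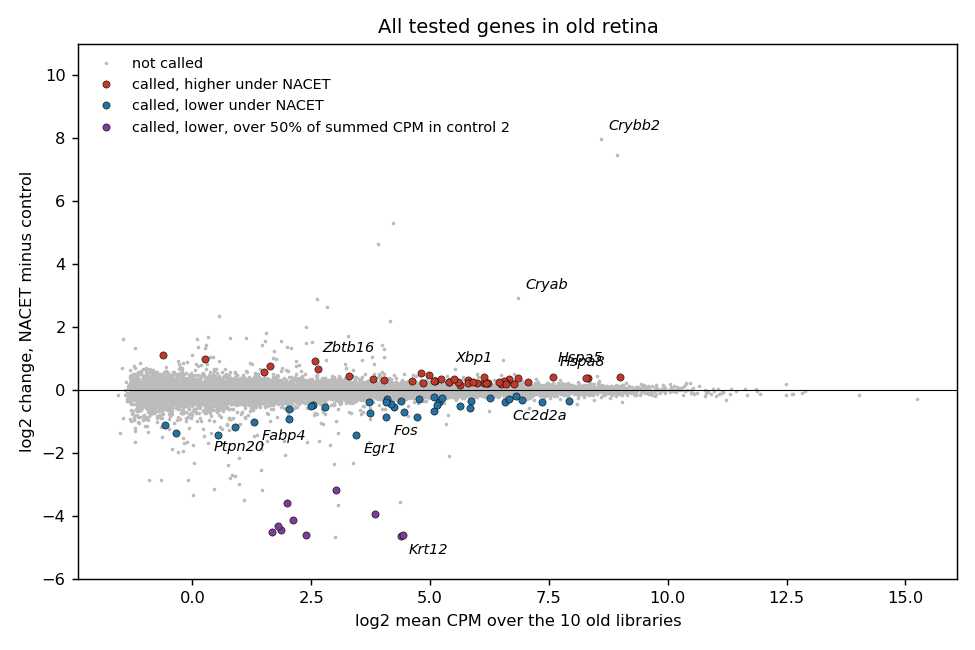
Log2 change (NACET minus control) against log2 mean CPM for the 16562 genes tested in old retina, with one point per gene and called genes coloured. Most of the 43 genes called higher lie just above 0, and the 10 called genes carried by control replicate 2 lie below -3.

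After 5 days of NACET, 90 of 16562 tested genes were called at an edgeR adjusted p under 0.05, 0.543% of those tested. Of these, 43 were higher (0.26%) and 47 lower (0.284%) in treated mice. The genes that rose included the cytosolic chaperones Hspa8 and Hsph1, the ER chaperones Hspa5 and Calr, and Xbp1. Those that fell included the immediate early genes Fos, Egr1, Nr4a1, Nr4a3 and Sik1, the cilium gene Cc2d2a and a block of corneal keratin genes carried by control replicate 2. The changes were small: the median size on the log2 scale was 0.30 among genes that rose and 0.57 among genes that fell, and 38 of the 43 and 24 of the 47 were under 1.5-fold. Among all tested genes, every NACET library was above every control for 292 (1.76%) and below every control for 300 (1.81%). Among the called genes these were 39 of the 43 that rose and 39 of the 47 that fell, counts that follow in part from the calls themselves. Over all tested genes 2393 had an unadjusted p under 0.05, and the median log2 change was 0.0020. DESeq2 called 373 genes, 87 of the 90 among them. The edgeR count fell to 8 without control replicate 2 and to 12 to 54 without control replicate 4 or any 1 NACET library, and 6 genes were called whichever library was left out: Hspa8, Xbp1, Fos, Sik1, Cc2d2a and Zfp385b.

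Cytosolic heat shock proteins were led by Hspa8, the constitutive HSP70 that folds newly made proteins and uncoats clathrin vesicles (chr9:40609067-40613283, mm9). Hspa8 expression was 172, 148, 158 and 155 CPM (counts per 1000000 gene counts of a library) in the 4 controls. In the NACET libraries it was 190.3 CPM at the lowest, 218 at the median and 226 at the highest. Every treated retina was above every control, with a rise of 0.43 on the log2 scale (SE 0.06, edgeR adjusted p 0.0103).

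Hsph1 (chr5:150416862-150438951), the HSP110 that exchanges the nucleotide of HSP70, had 83.5, 83.6, 92.9 and 83.2 CPM in controls. It ranged from 97.4 through a median of 113 to 118 CPM under NACET and did not overlap the controls (log2 change 0.36, SE 0.06, edgeR adjusted p 0.0186). All gene lists used here were chosen with earlier results of these data known, so their called shares are a description and not a test. Of the 27 tested heat shock genes Hspa8 and Hsph1 were the called members (7.41%, against 0.543% of all genes). A log2 change above 0 was found for 21 of 27, with a median of 0.081. The summed CPM of the list was 3211 to 3376 in controls and 3402 to 4529 under NACET. The highest value belonged to NACET replicate 1, the library with lens RNA, where Cryab, a small heat shock protein that is also a major lens crystallin, had 953 CPM against 19.8 to 25.4 CPM in the other 9 old libraries. Without that library the log2 change of Cryab was -0.02 in place of 2.94. When single libraries were left out in turn, Hspa8 kept its call 10 times of 10 and Hsph1 6 times (edgeR adjusted p 0.0706 without control replicate 2 and 0.0603 without control replicate 4).

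ER chaperones and folding enzymes gave 5 called genes of 27 tested, all higher (18.5%, against 0.26% of all genes called higher). Hspa5, or BiP, the HSP70 of the ER lumen (chr2:34627490-34632051), had 248, 262, 290.1 and 253 CPM in controls and 305, 352 and 359 CPM (lowest, median, highest) in treated mice. All treated values lay above all control values (log2 change 0.38, SE 0.06, edgeR adjusted p 0.0295). Calr, the lectin chaperone calreticulin (chr8:87365749-87370833), had 257, 273, 258 and 298 CPM in controls and 327, 353 and 391 CPM under NACET. Its groups did not overlap either (log2 change 0.37, SE 0.07, edgeR adjusted p 0.0384).

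The other 3 called ER genes were close to the threshold. Pdia6, a disulfide isomerase, rose by 0.29 on the log2 scale (SE 0.06, edgeR adjusted p 0.0489), from 76.3 to 90.3 CPM in controls to 90.4 to 106 CPM under NACET. Creld2, an ER stress-inducible cysteine-rich protein, had 20.7 to 22.4 CPM in controls and 24.8 to 28.8 CPM in treated mice (log2 change 0.29). Manf, a secreted factor that is held in the ER, had 29.6 to 30.4 CPM in controls and 32.7 to 40.5 CPM in treated mice (log2 change 0.30). The list as a whole moved little, with 19 of 27 members above 0 and a median log2 change of 0.068. Its summed CPM, which is set mainly by its most abundant members, was 2709 to 2843 in controls and 2982 to 3243 under NACET, with no overlap, and 7 of 27 members lay above every control (1.76% of all genes did).

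Xbp1, the unfolded protein response factor (chr11:5420662-5425896), had 59.3, 54.9, 64.5 and 56.1 CPM in controls and 71.2, 79.4 and 84.7 CPM under NACET. All 6 treated libraries were above the controls, and the log2 change was 0.42 (SE 0.06, edgeR adjusted p 0.0103). These are counts over the whole gene, so the spliced and unspliced forms of Xbp1 mRNA were not told apart. It was the called member among 27 sensors, factors and ERAD (ER-associated degradation) genes (3.70%, against 0.26% of all genes called higher), whose median log2 change was 0.039. With each of the 10 libraries left out in turn, Xbp1 was called 10 times, Hspa5 6 times, Calr 3 times, Pdia6 2 times, Manf 1 time and Creld2 0 times. Without control replicate 2 the adjusted p was 0.0757 for Hspa5 (0.0756 without control replicate 4), 0.111 for Calr 0.154 for Manf and 0.161 for both Pdia6 and Creld2.

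The promoters of these genes were read for short motifs, because the ER stress element is the site known to bind the factors of the unfolded protein response. In RefSeq promoters (GRCm38.p6, 250 bases before to 50 after the start), the ER stress element, written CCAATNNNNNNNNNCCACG and searched on both strands, was present in 39 of 32851 promoters (0.119%). Counted by gene, with any promoter of a gene, it was present in 37 of 27025 genes (0.137%). It occurred in 7 of the 21 ER chaperone genes with a promoter in the table, and 4 of these 7 were called: Hspa5, Pdia6, Calr and Creld2. The 3 that were not called, Hsp90b1, Dnajc3 and Canx, had log2 changes of 0.13, 0.21 and 0.07 (edgeR adjusted p 0.331, 0.123 and 0.595). No other called gene among the 61 with a promoter in the table had the motif. The sequences of the 4 called genes are shown on the strand of the gene with the element in capitals. In Hspa5 (chr2:34771985-34772083, plus strand) and Pdia6 (chr12:17266451-17266549, plus strand) it reads forward, and in Calr (chr8:84847035-84847133, minus strand) and Creld2 (chr15:88819480-88819578, plus strand) it reads on the opposite strand.
Hspa5: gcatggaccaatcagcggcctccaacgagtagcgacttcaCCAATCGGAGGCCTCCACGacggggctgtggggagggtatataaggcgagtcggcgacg
Pdia6: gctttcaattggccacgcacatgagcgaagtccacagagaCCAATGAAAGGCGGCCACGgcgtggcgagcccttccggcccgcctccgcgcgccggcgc
Calr: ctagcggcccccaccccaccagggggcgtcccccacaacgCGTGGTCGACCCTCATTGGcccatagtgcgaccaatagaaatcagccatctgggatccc
Creld2: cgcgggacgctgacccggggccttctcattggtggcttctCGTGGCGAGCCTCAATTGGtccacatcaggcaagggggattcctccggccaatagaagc
The element began 65 bases before the start in Hspa5, 98 in Pdia6, 162 in Calr and 126 in Creld2.

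Other motifs were counted in the same way, on both strands. The heat shock element was in 0.603% of promoters (0.662% of genes) and, among called genes, in Hsph1. The antioxidant response element core TGACNNNGC, the letters that NRF2 recognises, was in 12.4% of promoters and 14.0% of genes. It was in 6 of 30 called higher and 9 of 31 called lower genes with a promoter. The cAMP response element TGACGTCA was in 1.79% of promoters (2.03% of genes), in 3 of 26 immediate early genes and in none of the called ones among them.

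**Figure D2:**
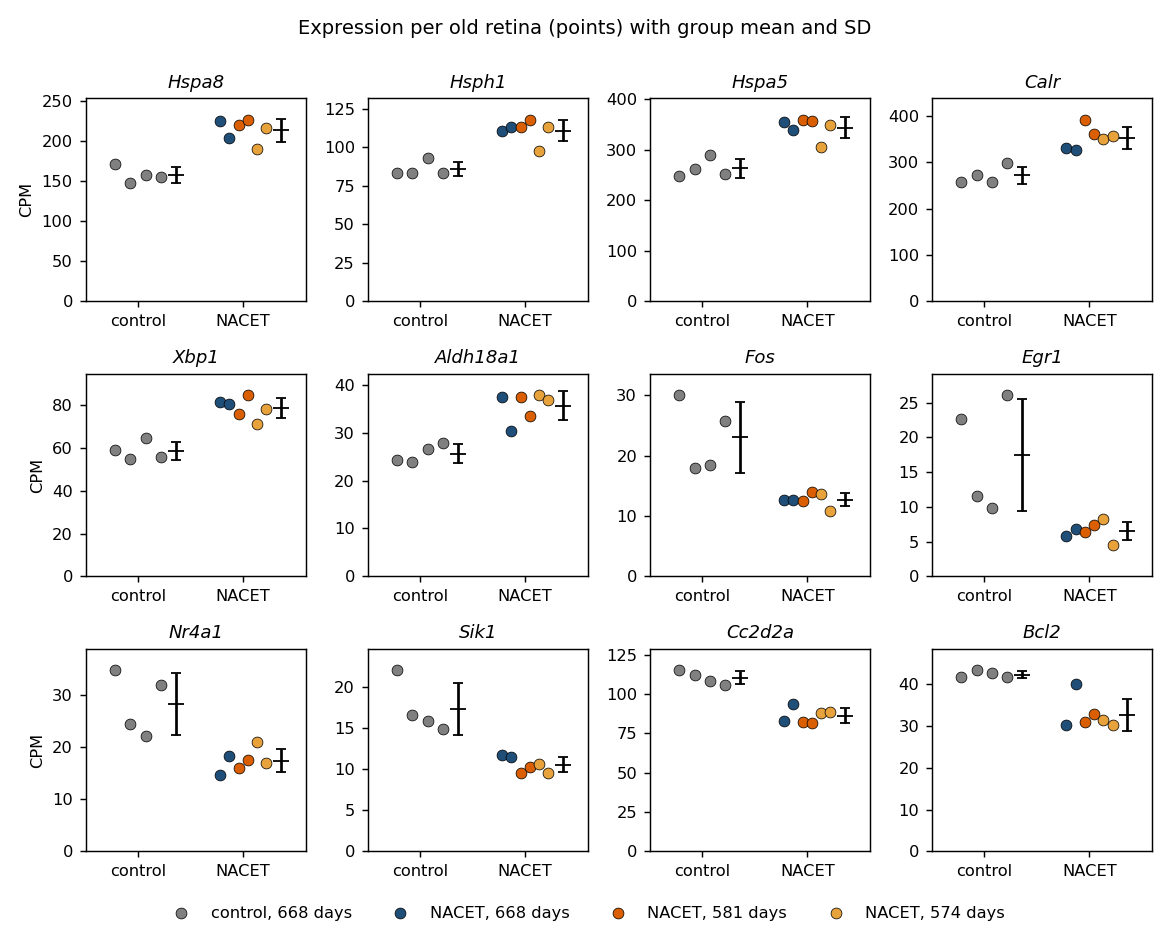
CPM of 12 called genes in each old retina, with controls in grey, NACET libraries coloured by age, and the mean with SD beside each group; every axis starts at 0. In all 12 genes the groups did not overlap, and the NACET library nearest to the controls for Bcl2 was replicate 2 (668 days).

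The mitochondrial chaperone Clpb, a disaggregase, rose by 0.22 on the log2 scale (55.6 to 60.3 CPM in controls, 63.9 to 73.1 CPM in treated mice; edgeR adjusted p 0.0491). It was the called gene of 15 mitochondrial chaperones and proteases (6.67%, against 0.26% of all genes called higher), whose median was 0.021. Clpb lost its call whichever of the 10 libraries was left out.

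Amino acid and translation genes rose in part. Aldh18a1, which makes the proline precursor and belongs to the ATF4 targets (chr19:40624747-40662953), had 24.2, 23.9, 26.6 and 27.8 CPM in controls and 30.4, 37.2 and 37.8 CPM under NACET. The groups did not overlap (log2 change 0.46, SE 0.07, edgeR adjusted p 0.0186), and the call held in 8 of 10 leave-one-out fits (adjusted p 0.0717 without control replicate 2). It was the called gene of 28 tested ATF4 and amino acid response genes (3.57%, against 0.26% of all genes called higher). Of 19 aminoacyl tRNA synthetases, which charge tRNAs with amino acids, 2 were called higher (10.5%, against 0.26% of all genes). They were Cars, for cysteine, with 44.9 to 51.9 CPM in controls and 53.0 to 64.7 CPM under NACET, and Mars, for methionine, with 86.8 to 89.4 and 94.3 to 109 CPM. Their log2 changes were 0.31 and 0.22 (edgeR adjusted p 0.0428 and 0.0495, or 0.128 and 0.141 without control replicate 2), and 16 of the 19 synthetases were above 0 with a median of 0.083. In the 668-day mice alone this median was 0.018.

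Targets of NRF2 and glutathione genes did not pass the test. Of 36 tested, 0 were called by edgeR and 0 by DESeq2, and 9 had an unadjusted p under 0.05, 5 higher and 4 lower. The median log2 change was 0.015, and it was -0.0035 without NACET replicate 1, 0.060 without control replicate 2 and -0.025 in 668-day mice alone, where 14 of 36 genes were above 0. Malic enzyme Me1, which supplies NADPH, had 112 to 131 CPM in controls and 105 to 118 CPM under NACET (log2 change -0.19, edgeR adjusted p 0.17), and the glutathione conjugate pump Abcc1 had 66.2 to 73.1 and 71.8 to 84.0 CPM (log2 change 0.14, adjusted p 0.182). Gsta4, a glutathione transferase, had 20.2, 62.9, 20.2 and 21.2 CPM in controls and 17.1 to 19.5 CPM in treated mice, so that 1 control set its log2 change of -0.83 (-0.20 without control replicate 2). Heme oxygenase Hmox1 had 41.6 CPM in NACET replicate 1 and 3.15 to 4.38 CPM in the other 9 old libraries, and its log2 change was 1.51 with that library and 0.13 without it.

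Immediate early genes gave 5 called genes of 33 tested, all lower (15.2%, against 0.284% of all genes called lower). Fos, a subunit of AP-1 (chr12:86814840-86818223), had 30.0, 17.9, 18.6 and 25.8 CPM in the controls. In treated mice its lowest, median and highest values were 10.9, 12.6 and 13.9 CPM. Every treated retina was below every control, and the controls differed more among themselves than the treated retinas did (log2 change -0.86, SE 0.12, edgeR adjusted p 0.0126).

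Egr1, a zinc finger factor of the same early wave, had 22.6, 11.5, 9.85 and 26.0 CPM in controls and 4.53, 6.64 and 8.28 CPM under NACET (log2 change -1.42, SE 0.24, edgeR adjusted p 0.025). The orphan nuclear receptor Nr4a1 (chr15:101097277-101105223) had 34.6, 24.4, 22.1 and 31.9 CPM in controls and 14.7, 17.2 and 21 CPM under NACET (log2 change -0.70). Controls 1 and 4 were the highest for Fos, Egr1 and Nr4a1, and no treated library reached the lowest control. Nr4a3, a relative of Nr4a1, had 7.83, 5.34, 5.47 and 4.03 CPM in controls and 2.46, 2.90 and 3.66 CPM under NACET (log2 change -0.91). Sik1, a kinase induced by cAMP (chr17:31981193-31992737), had 22.0, 16.5, 15.8 and 14.9 CPM in controls and 9.56, 10.5 and 11.7 CPM under NACET (log2 change -0.72, SE 0.10, edgeR adjusted p 0.0103). For both genes the groups did not overlap.

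Of the 33 genes 28 had a log2 change under 0, with a median of -0.22, and 16 had an unadjusted p under 0.05, all 16 lower. The summed CPM of the list was 597 to 656 in controls and 517 to 554 under NACET. The calls of Fos and Sik1 held in all 10 leave-one-out fits, those of Egr1 and Nr4a1 in 7 (edgeR adjusted p 0.0612 and 0.0681 without control replicate 4) and that of Nr4a3 in 5. In young mice the log2 change was -0.39 for Fos, -0.50 for Egr1, -0.08 for Nr4a1, -0.46 for Sik1 and -1.18 for Nr4a3. No gene was called in young mice by edgeR (724 at an unadjusted p under 0.05; DESeq2 was not run there). The hour of dissection is not given in the sources used here, and its part in these differences was not tested.

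**Figure D3:**
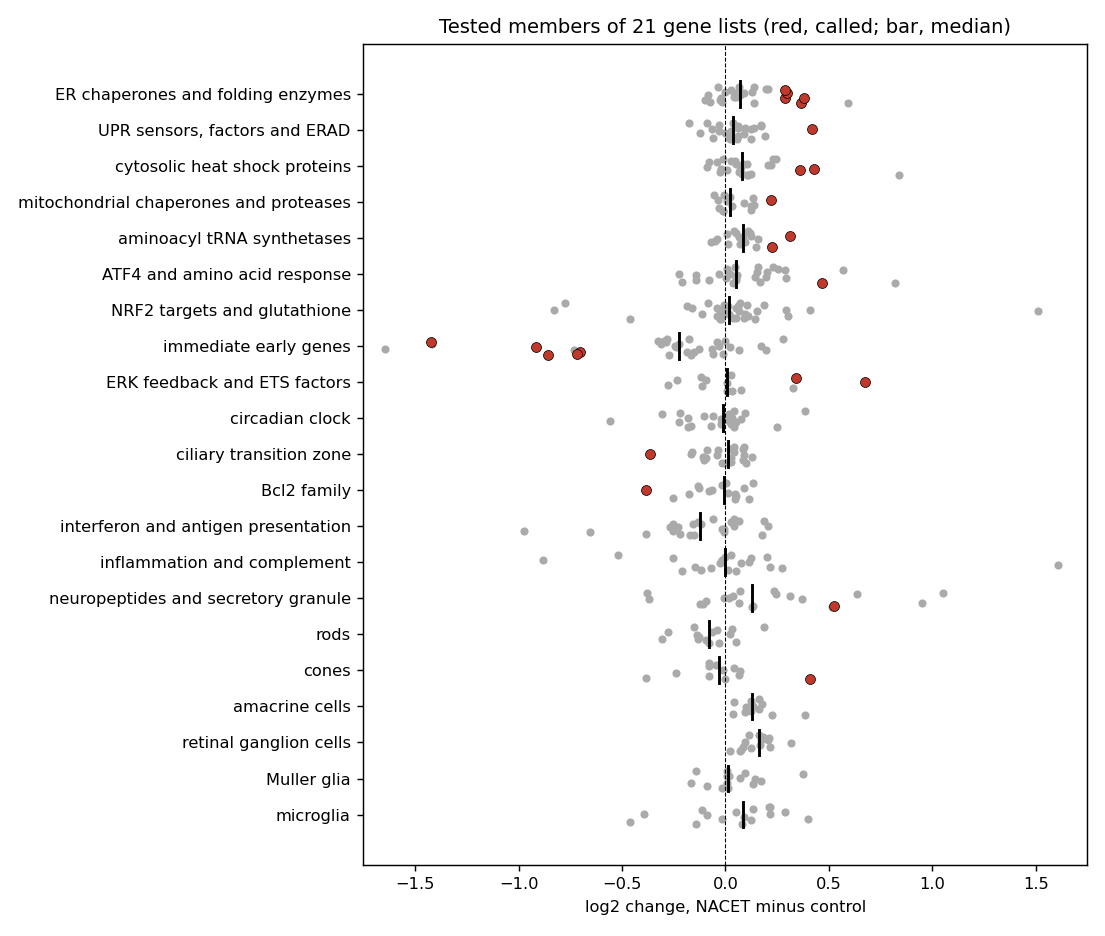
Log2 change (NACET minus control) of each tested member of 21 gene lists, with called genes in red and the median of each list as a bar; 1 member, Cryab, lies beyond the axis. ER, heat shock and tRNA synthetase genes have called members to the right of 0 and immediate early genes to the left.

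Genes of growth factor signalling gave 2 called members of 13 tested, both higher (15.4%, against 0.26% of all genes called higher). The ETS factor Etv4, a target of ERK signalling (chr11:101631056-101646685), had 4.68, 4.38, 4.32 and 4.94 CPM in controls and 6.26, 7.21 and 9.01 CPM under NACET. The groups were apart (log2 change 0.68, SE 0.10, edgeR adjusted p 0.0161), and Etv4 lost its call in 1 of 10 leave-one-out fits, that without control replicate 2 (adjusted p 0.0706). Spred3, an inhibitor of the pathway, rose by 0.34, from 34.2 to 45.0 CPM in controls to 46.1 to 53.8 CPM (adjusted p 0.128 without control replicate 2). The other 11 of the 13 tested ERK feedback and ETS genes were not called, and the median of the list was 0.0094. Zbtb16, a zinc finger gene induced by glucocorticoids, had 4.13, 3.25, 5.04 and 3.07 CPM in controls and 5.90, 6.60 and 10.2 CPM under NACET (log2 change 0.93, SE 0.18, edgeR adjusted p 0.0428). It was the called gene of 14 tested glucocorticoid responsive genes (7.14%, against 0.26% of all genes called higher), of which 10 were under 0. The adjusted p of Zbtb16 was 0.141 without control replicate 2.

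Cc2d2a, a protein of the ciliary transition zone that gates the photoreceptor outer segment (chr5:44053618-44132211), fell. It had 115, 112, 108 and 106 CPM in controls and 81.8, 85.4 and 93.8 CPM in treated mice. The groups did not overlap, and its p was the smallest of all genes (log2 change -0.37, SE 0.05, edgeR adjusted p 0.0103). None of the other 22 tested transition zone genes was called, and their list had a median log2 change of 0.011. Bcl2, the founding inhibitor of apoptosis (chr1:108434755-108610851), had 41.5, 43.2, 42.5 and 41.5 CPM in controls. Of the NACET libraries replicate 2 had 40 CPM and the other 5 had 30.1 to 32.9 CPM (log2 change -0.38, SE 0.07, edgeR adjusted p 0.0428). Bcl2 was the called gene of 16 tested members of its family (6.25%, against 0.284% of all genes called lower), and its call held in 2 of 10 leave-one-out fits.

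The remaining genes with the smallest p among those that rose belonged to no list. Srrt, which binds the cap-binding complex, had 113 to 122 CPM in controls and 138 to 151 CPM under NACET (log2 change 0.27, SE 0.04, edgeR adjusted p 0.0151). The splicing kinase Clk3, the clathrin adaptor subunit Ap1m1, the ubiquitin ligase Mib2 and the synaptic adhesion gene Lrfn2 rose by 0.24, 0.22, 0.23 and 0.35. Ttc16, Ssbp3, Hdgfrp2, Sh2d5, Lrrc23 and Mkl1 rose by 0.77, 0.24, 0.22, 0.26, 0.57 and 0.24. In all 11 genes no treated library overlapped the controls, while 1.76% of all tested genes lay above every control. The 11 were chosen by smallest p in the same libraries, so this follows in part from the choice. Without control replicate 2 their adjusted p ran from 0.0634 for Srrt to 0.151 for Sh2d5.

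Among genes that fell, Ptpn20, a tyrosine phosphatase (chr14:34402456-34453940), had 2.39, 2.99, 2.68 and 3.16 CPM in controls and 1.06, 1.13 and 1.80 CPM under NACET (log2 change -1.18, SE 0.17, edgeR adjusted p 0.0126). The kinase Taok3 (chr5:117570138-117725228) had 182 to 196 CPM in controls and 130.1 to 163 CPM in treated mice, and the zinc finger gene Zfp385b (chr2:77248691-77657696) had 61.0 to 84.5 and 43.1 to 54.6 CPM. Their log2 changes were -0.37 and -0.57 (edgeR adjusted p 0.0161 and 0.0126), and the call of Zfp385b held in all 10 leave-one-out fits. Of mitochondrial genes, the pyrophosphatase Ppa2 and the dicarboxylate carrier Slc25a10 fell by 0.36 and 0.34 on the log2 scale. Fabp4, a fatty acid binding protein, fell by 1.00, from 2.90 to 4.02 CPM to 0.976 to 2.33 CPM. Mast2, Wdr31, Atrnl1 and Anubl1 changed by -0.34, -0.51, -0.31 and -0.59, and 3 long intergenic non-coding RNAs, Gm16862, 4932415G12Rik and Gm16958, by -0.85, -0.30 and -0.47. For every gene of this paragraph the groups did not overlap, while 1.81% of all tested genes lay below every control. These genes too were chosen by smallest p, so this follows in part from the choice. Without control replicate 2 the adjusted p was 0.0566 for Ptpn20, 0.0706 for Taok3, 0.0757 for Ppa2 and 0.128 for Fabp4.

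Corneal and lens genes were examined library by library, since the retina is dissected out of the eye. The 36 genes of corneal and conjunctival epithelium summed to 81.1, 860, 97.6 and 138 CPM in the 4 controls and to 65.2 to 98.6 CPM in the NACET libraries. Blood genes summed to 92.0 CPM in control replicate 2 and to 5.28 to 12.7 CPM in the other old libraries. Control replicate 2 was thus the highest in both, and 117 genes had there at least 2-fold the level of every other old library. The 25 lens genes summed to 13217 CPM in NACET replicate 1 and to 11.0 to 35.5 CPM in the other 9 libraries. In that library 102 genes stood at least 2-fold above every other old library, 21 of them from the lens list, and together they took 1.67% of its counts. The crystallin genes Cryaa, Crybb2 and Cryba1 had 4895, 3853 and 1189 CPM in it and at most 12.1, 6.35 and 1.5 CPM elsewhere.

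**Figure D4:**
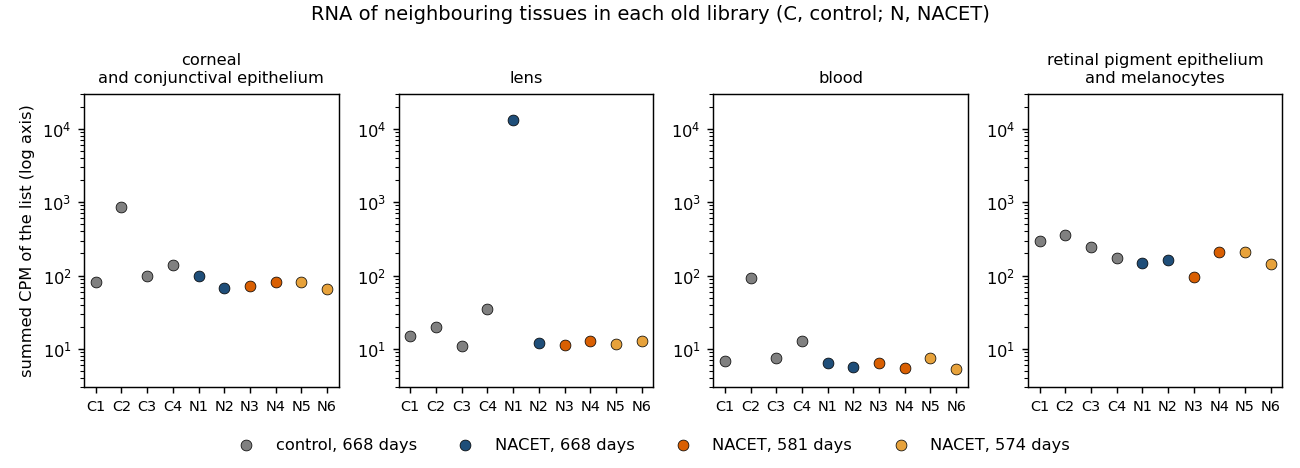
Summed CPM of marker lists of 4 neighbouring tissues in each of the 10 old libraries, on a log axis, with controls in grey and NACET libraries coloured by age. Control replicate 2 lies above the rest for corneal and blood genes and NACET replicate 1 for lens genes.

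These libraries set part of the calls. Of the 47 genes called lower, 10 had 65.3% to 81.0% of their summed CPM over the old libraries in control replicate 2: Krt5, Krt6a, Krt6b, Krt12, Dsp, Psca, Emp1, Lypd2, Asprv1 and 2310043J07Rik. Krt5, the basal keratin of stratified epithelium (chr15:101537501-101543322), had 2.83, 171, 7.12 and 20.8 CPM in controls and 0.0440, 2.31 and 4.14 CPM under NACET (lowest, median, highest), so that the groups overlapped. None of the 10 was called by edgeR without control replicate 2 (DESeq2 was not run without it), and all 10 had there an unadjusted p under 0.05. The remaining libraries had entered the calls, so the latter count is a description. Of the 21 tested corneal genes 5 were called lower (23.8%, against 0.284% of all genes called lower). These were 4 of those above and Esrp1, an epithelial splicing factor, with 1.47 to 4.15 CPM in controls and 0.704 to 0.982 CPM in treated mice. The median log2 change of the 21 corneal genes was -1.63, and -0.36 without control replicate 2. The lens list had no called gene by edgeR or DESeq2 and 4 of 5 tested members with an unadjusted p under 0.05; its median was 5.30 with and -0.74 without NACET replicate 1. With both of these libraries left out, an alternative chosen after seeing the data, 25 genes were called, 24 of them among the 90; these included Psca, Dsp, Emp1 and 2310043J07Rik, but no keratin gene.

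Genes of retinal pigment epithelium and melanocytes, which border the retina, also differed in level. They summed to 291, 357, 246 and 175 CPM in controls and to 148, 165, 95, 211, 211 and 143 CPM in NACET replicates 1 to 6, so that the groups overlapped. None of the 19 tested was called by edgeR and 2 were called lower by DESeq2. The median log2 change was -0.76, and 13 had an unadjusted p under 0.05, all lower. The secreted carrier Ttr had 39.0 to 81.2 CPM in controls and 10.3 to 40.7 CPM under NACET, and Rgr, a retinal opsin of the pigment epithelium, 35.2 to 80.6 and 12.6 to 47.7 CPM. With the summed level of this list as a covariate 0 genes were called by edgeR (1613 at an unadjusted p under 0.05; DESeq2 was not run with it). In that fit all 90 called genes kept their sign and 83 had an unadjusted p under 0.05. The 90 had been called in the same libraries, so both counts are a description. The log2 change was 0.37 for Hspa8 and 0.40 for Xbp1 (edgeR adjusted p 0.183 and 0.155), and -0.89 for Fos and -0.34 for Cc2d2a (both 0.155), and the part of pigment epithelium in their differences was not tested. Connective tissue and skeletal muscle lists had 0 called genes of 14 and 8 (edgeR and DESeq2), with 2 and 0 at an unadjusted p under 0.05.

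Retinal cell types were compared through their marker genes. In these bulk samples fewer cells of a type and less RNA per cell cannot be told apart. Of 15 rod genes 0 were called by edgeR and 1 by DESeq2, 2 had an unadjusted p under 0.05, and the median log2 change was -0.078. Arr3, the arrestin of cones (chrX:97800836-97813832), rose: it had 396, 403, 511 and 398 CPM in controls and 508, 565 and 618 CPM under NACET. The lowest treated library lay just below the highest control (log2 change 0.41, SE 0.08, edgeR adjusted p 0.0456), and none of the other 11 cone genes was called. Of the 12 cone genes 8 had a log2 change under 0, with a median of -0.030. An unadjusted edgeR p under 0.05 was found for 3 of them, 1 higher and 2 lower. Without control replicate 2 the adjusted p of Arr3 was 0.161. In young mice Arr3 had a log2 change of 0.39, so that its interaction was 0.02 (unadjusted edgeR p 0.894).

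Ganglion and amacrine cell genes lay above 0 without calls. All 15 retinal ganglion cell genes had a log2 change above 0, with a median of 0.16, none of them called by edgeR or DESeq2 and 4 at an unadjusted p under 0.05. All 12 tested amacrine genes were above 0 as well, with a median of 0.13, none called by edgeR and 1 by DESeq2, and 6 at an unadjusted p under 0.05. In 668-day mice alone the medians were -0.043 and 0.032, with 6 of 15 and 9 of 12 genes above 0. The ganglion cell factor Pou4f1 had 22.3 to 28.3 CPM in controls, 30.3 and 24.4 CPM in the 668-day treated mice and 30.7 to 39.0 CPM in the younger ones. Gap43, of growing axons, had 24.9 to 31.6 CPM in controls, 30.3 and 27.8 CPM at 668 days and 33.1 to 35.9 CPM in the younger treated mice. For both genes the 668-day treated libraries lay within or near the control range.

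Neuropeptide and secretory granule genes gave 1 called gene of 21 (4.76%, against 0.26% of all genes called higher). This was Vgf, a neurotrophin-inducible precursor of secreted peptides (chr5:137506165-137509221). It had 24.8, 20.0, 20.2 and 23 CPM in controls. Of the treated mice those of 668 days had 24.6 and 26.0 CPM, at the upper end of the controls, and those of 581 and 574 days had 33.3, 37.5, 34.5 and 34.6 CPM. The log2 change over all treated mice was 0.53 (SE 0.11, edgeR adjusted p 0.0491), and it was 0.20 in 668-day mice alone. Without control replicate 2 the adjusted p was 0.161. Of the other lists, Muller glia, reactive gliosis, microglia, bipolar and horizontal cells, endothelium, interferon and inflammation genes and the circadian clock had 0 genes called by edgeR, with 0 to 7 at an unadjusted p under 0.05. Their medians ran from -0.12 (24 interferon genes, 5 at an unadjusted p under 0.05) to 0.13 (10 horizontal cell genes, 0 at that p). DESeq2 called 1 Muller, 1 interferon, 2 inflammation and 2 clock genes and none of the rest. The Notch effector Hes1 had 6.56 to 8.54 CPM in controls and 8.80 to 11.4 CPM under NACET (edgeR adjusted p 0.096), and Ly75, an endocytic receptor of immune cells, 22.6 to 36.7 and 17.9 to 22.4 CPM (adjusted p 0.0614). The clock genes Per1 and Bhlhe41 had log2 changes of -0.22 each (adjusted p 0.0744 and 0.0741).

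The ages of the treated mice were then compared directly, 4 mice of 581 and 574 days against 2 of 668 days. Of 16659 genes 0 (0%) were called by edgeR, 1376 had an unadjusted p under 0.05, and the lowest adjusted p was 0.119; DESeq2 called 46. The smallest p among genes higher in the younger mice belonged to Calb2, which encodes the calcium binding protein calretinin (log2 difference 0.45). It had 288 and 279 CPM at 668 days, 367 to 395 CPM in the younger treated mice and 267 to 342 CPM in the 668-day controls. Gng4, a G protein subunit, had 24.1 and 24.3, 31.6 to 34.5 and 22.8 to 28.4 CPM in the same order. Both genes were chosen by their small p in this contrast, so the gap between the treated ages follows in part from the choice. The treated mice of the controls' age lay within the control range for both, and the younger ones above it. Adam1b, a metalloprotease gene, went the other way, with 4.82 and 4.43 CPM at 668 days and 2.11 to 2.53 CPM in the younger mice. Of 15 ganglion cell genes 15 were higher in the younger mice (median log2 difference 0.24, 11 at an unadjusted p under 0.05), and of 21 neuropeptide genes 20 were (median 0.23, 10 at that p). Of 14 reactive gliosis genes 13 were lower (median -0.47), with the lens-bearing library as 1 of the 2 at 668 days.

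The genes called for NACET were looked up in the same contrast. Of the 90 called genes, 7 had an unadjusted p under 0.05 in the contrast of ages, beside 1376 of all 16659 genes tested there. The log2 difference between younger and 668-day treated mice was -0.01 for Hspa8, -0.06 for Xbp1, -0.02 for Hspa5, 0.01 for Fos and -0.05 for Cc2d2a. It was 0.47 for Vgf, 0.15 for Calr, -0.21 for Sik1 and -0.58 for Zbtb16. For 83 of the 90 genes both 668-day treated libraries lay outside the range of the controls in the called direction, and for 81 all 4 younger ones did. These libraries had entered the calls, so all counts and log2 differences of this paragraph are a description.

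**Figure D5:**
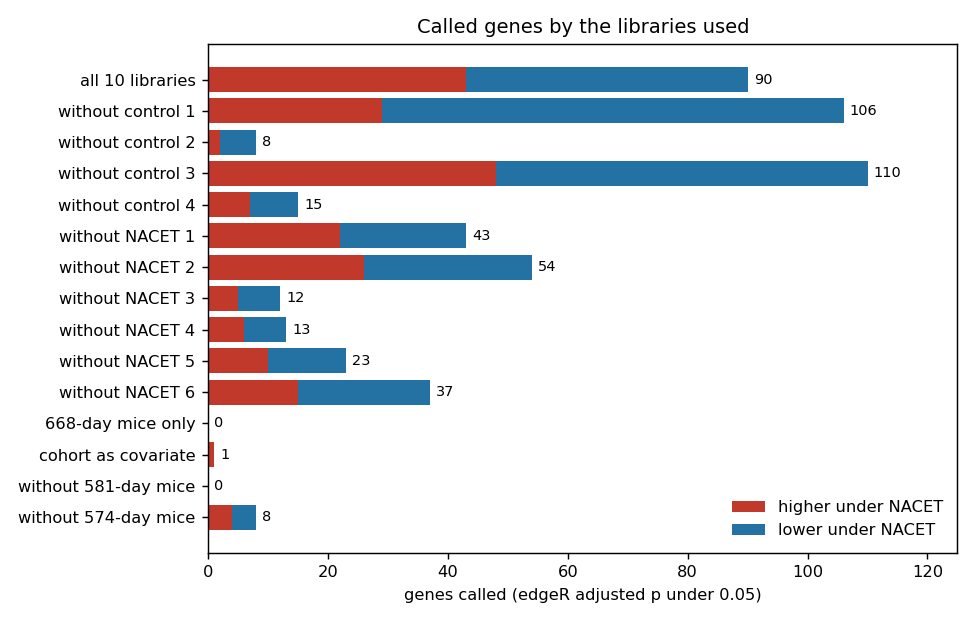
Number of genes called higher (red) and lower (blue) at an edgeR adjusted p under 0.05 with all 10 old libraries, without each library and under 4 treatments of age. The total runs from 8 without control replicate 2 to 110 without control replicate 3, and it is 0 in 668-day mice alone.

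Fits restricted to 668-day mice (4 controls, 2 treated) called 0 genes by edgeR, with 1396 at an unadjusted p under 0.05; DESeq2 was not run there. The controls are shared with the full comparison, so the values of single genes are set side by side. The log2 change in 668-day mice and in all mice was 0.43 and 0.43 for Hspa8, 0.46 and 0.42 for Xbp1, 0.39 and 0.38 for Hspa5, and 0.27 and 0.37 for Calr. It was -0.87 and -0.86 for Fos, -1.46 and -1.42 for Egr1, -0.58 and -0.72 for Sik1, -0.33 and -0.37 for Cc2d2a and -0.27 and -0.38 for Bcl2. With the cohort (668 days or younger) as a covariate 1 gene was called, Zbtb16, and 1559 had an unadjusted p under 0.05. Because all controls were 668 days old, treatment and age cannot be told apart in the 4 younger treated mice. The batch label of every old library gave the same age as its title, so batch and age cannot be told apart either.

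Whether these differences were larger than in young mice was tested as an interaction over all 20 libraries. The 4 young controls were 119 days old. Of the 6 young NACET mice 4 were 129 days and 1 was 119 days old, and for replicate 6 the labels give both ages. All old mice were labelled male, although control replicate 4 had 59555 counts of Xist. In each young group 2 mice were labelled female, and these 4 libraries had 39432 to 55857 counts of Xist. Of 16993 genes 0 (0%) were called by edgeR, with 1052 at an unadjusted p under 0.05, and DESeq2 called 86. In young mice Hspa8 had 181 ± 19.1 CPM without NACET (SD, n = 4) and 186 ± 28.7 CPM with it (SD, n = 6), and its interaction was 0.39 (unadjusted edgeR p 0.00739, adjusted 0.496). Cc2d2a had 109 ± 13.2 and 106 ± 9.14 CPM in the same young groups, with an interaction of -0.32 (unadjusted edgeR p 0.00386, adjusted 0.375). Xbp1 had 67.4 ± 10.9 and 70.2 ± 7.44 CPM, and its interaction was 0.36 (unadjusted edgeR p 0.0078, adjusted 0.498). Fos had 25.6 ± 9.90 and 19.6 ± 1.55 CPM, with an interaction of -0.47 (unadjusted edgeR p 0.065, adjusted 0.819). The smallest adjusted p, 0.0678, was shared by several genes, among them Taok3 (interaction -0.54), Mkl1 (0.40) and, of the genes carried by control replicate 2, Krt5, Krt6a, Krt6b, Dsp, Emp1 and 2310043J07Rik (-8.61 to -6.07). In this edgeR fit a difference between ages was thus not called for any of these genes. In old mice the log2 changes of the named genes carried by control replicate 2 were -4.62 to -3.59, smaller in size than their interactions. The young libraries therefore contributed to these interactions as well. In young mice the corneal list, which holds Krt5, Krt6a and Dsp, had a median log2 change of 2.099 (NACET minus control). Carry-over of corneal RNA into single young libraries was not tested. Of the 90 called genes 50 had an unadjusted p under 0.05, in a test that uses the same old libraries as the calls.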

How the data were processed

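Deposited were unnormalized read counts for each gene, made by the authors from polyA-selected TruSeq libraries, sequenced single end. Reads were aligned to mm9 with TopHat2 2.1.0 and counted over exons without regard to strand with HTSeq 0.11.2 (versions from the submitters' processing notes), so overlapping and antisense genes cannot be told apart by strand. The annotation behind the counts is not given in the sources used here. Each file held 35006 genes. Reads set aside were 17.1% to 20.5% outside genes, 1.10% to 1.17% ambiguous and 6.73% to 7.70% not unique per old library. A row without a gene name, 0.000736% to 0.00157% of counts, was left out.

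From these counts, tests used R 4.3.3 and edgeR 4.0.16 (scaling by TMM, default expression filter by group, quasi-likelihood test, Benjamini-Hochberg adjustment), and called genes had an adjusted p under 0.05. The study used DESeq2 with default settings after removing ribosomal RNA genes; both were run as alternatives (DESeq2 1.42.0, 184 ribosomal RNA genes). SE is a standard error derived from the test, as the size of the log2 change over the square root of the quasi-likelihood F statistic. CPM is the count per 1000000 gene counts. Replicates were compared for duplicates, and none was found: the chi-square per degree of freedom between replicates was 2.63 to 34.7. Each library is 1 mouse, so p-values measure the spread between mice. The fitting script was tested on simulated data.

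Named genes were the 20 with the smallest p in each direction, called members of the gene lists, up to 3 members with the smallest p of lists without a call, 3 of each carry-over list, 3 in each direction of the age contrast, and Hspa8, Xbp1, Fos and Cc2d2a. Psca, Krt6b, Emp1, Lypd2, Asprv1, 2310043J07Rik, Hmox1 and Cryab were named after their values were seen, and Hsp90b1, Dnajc3 and Canx for their promoter motif. The members and lists were chosen with earlier results of these data known, and no test was run over a list. Gene positions are from GENCODE vM1 on mm9, by gene name, and promoters from RefSeq (GRCm38.p6), which held 61 of the 90 called genes.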

Additional observations from a re-analysis of the deposited data

Results flagged for a closer look

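Values that lay far from the rest of their group were looked for in 182 groups of 4 or 6 libraries, by the gap to the nearest library as a share of the range (Dixon's criterion at 95%), and 34 were found. A chance rate of about 1 in 20 would hold for independent groups that were not chosen by their values. Here some genes were named after their values were seen, and many of the 34 share control replicate 2 or NACET replicate 1. The 34 are therefore a description and cannot be set against that rate.

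Control replicate 2 was the highest of the 4 controls for the corneal list (860 CPM) and the blood list (92 CPM). Its single genes were Krt5 (171 CPM), Krt12 (169), Krt6a (24.2), Krt6b (32.7), Dsp (42.5), Psca (26.3), Emp1 (107), 2310043J07Rik (28.6), Lypd2 (29.3), Asprv1 (53.1), Aldh3a1 (157), a corneal crystallin enzyme, and Gsta4 (62.9). The other 3 controls had 0.544 to 20.8 CPM of the keratins and 20.2 to 21.2 CPM of Gsta4. NACET replicate 1 was the highest of the 6 treated libraries for the lens list (13217 CPM), Cryaa (4895), Crybb2 (3853), Cryba1 (1189), Cryab (953), Hmox1 (41.6) and Aldh3a1 (12.1).

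The remaining values came from genes of the retina. Control replicate 3 was the highest control for Hsph1 (92.9 CPM) and Arr3 (511 CPM) and the lowest for Manf (29.6 CPM). Control replicate 1 was the highest for Anubl1 (5.66 CPM), and control replicate 4 the highest for Ppa2 (75.5 CPM) and the lowest for Abcc1 (66.2 CPM). Among treated libraries, NACET replicate 5 was the lowest for Hsph1 (97.4 CPM) and Hspa5 (305 CPM) and the highest for 4932415G12Rik (27.1 CPM). NACET replicate 2 was the highest for Bcl2 (40 CPM), replicate 3 for Hsp90b1 (568 CPM), and replicate 6 for Lrfn2 (16.6 CPM) and Ptpn20 (1.8 CPM).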

How the results depend on the processing

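The 90 calls depended on the processing, while every called gene that was tested kept its direction in each of the 29 alternatives. The alternatives reuse libraries that had entered the calls, so the kept directions are a description. Leaving out 1 library gave 8 to 110 calls: 8 without control replicate 2, 15 without control replicate 4, 43, 54, 12, 13, 23 and 37 without NACET replicates 1 to 6. DESeq2 called 373 and the fit without a filter on low counts 150. There were 0 calls in 668-day mice alone, 0 without the 581-day and 8 without the 574-day mice, 1 with cohort and 1 with age in days as a covariate. The covariates of corneal and pigment epithelium lists left 1 and 0 calls, and 1 fit of all 4 groups left 1. Without both control replicates 2 and 4, chosen after seeing the data, there were 0, and without NACET replicate 1 and control replicate 2, likewise chosen, 25. The remaining alternatives (RLE, 1 CPM filter, robust fit, lens covariate, without carry-over or ribosomal RNA genes) gave 78 to 112. The cause of these differences was not tested.

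Replicate numbers did not pair the mice: deviations of same-numbered control and NACET libraries had correlations of -0.03 to 0.08 over genes. With a replicate block 17 genes were called for NACET and 34 for the interaction.

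The age contrast within treated mice called 46 genes with DESeq2, 88 without a filter and 0 to 309 without 1 library (309 without NACET replicate 2, which left the lens-bearing library as the lone 668-day mouse, assumed to vary like the others; 2 without NACET replicate 5). The interaction called 86 with DESeq2, 49 without a filter and 0 to 77 without 1 library.

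Signs turned for few genes. Over the leave-one-out fits Cryab ran from -0.02 to 3.17 and Cryaa from -3.49 to 8.73, the lowest without NACET replicate 1. Cryaa was -3.57 without it and control replicate 2, and with the lens covariate Cryaa was -2.67 and Crybb2 -3.61. With the pigment epithelium covariate Hsp90b1 was -0.00226, Canx -0.00912 and Rgr 0.10. In 668-day mice alone, with cohort and with age as a covariate, Calb2 was -0.0859, -0.0869 and -0.0837, Gng4 -0.0879, -0.0879 and -0.0829, and Adam1b 0.26, 0.26 and 0.26.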
